A study of Homo sapiens with 6 samples.

Results

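NPIPB3, NPIPB4, NPIPB5, NPIPB11, NPIPB12 and NPIPB13 are 6 of the 60671 annotated genes in the deposited matrix. They belong to the NPIP (nuclear pore complex interacting protein) family, of which the matrix lists 24 copies, 15 of them named NPIPB. The 6 were selected on their measured values, because each was lower in the tumor core than in the tumor margin in the same samples. The difference between the zones is therefore given for them as a description, with no test. RNA-seq had been performed on tumors grown from MDA-MB-231 cells of WT genotype, a line derived from a human triple-negative breast cancer. The cells were injected orthotopically, with Matrigel, into the fourth mammary fat pads of female NOD/SCID/IL2Rγ-null (NSG) mice aged 6 to 8 weeks. These mice lack T, B and NK cells but keep myeloid cells, stroma and the tissue around the tumor. The labels give 3 samples of tumor core (TC) and 3 of tumor margin (TM), with no further treatment in either group, and they do not say which TC and TM samples came from the same mouse. All cells came from 1 line. Where the labels name no separate animals, p-values measure only the spread between these samples.

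NPIP genes sit in the low-copy repeats that are scattered over chromosome 16. The repeat core that carries them spread in the primate lineage by segmental duplication, and the copies have stayed near-identical in sequence. The mouse has no NPIP family. The proteins were named for an interaction with the nuclear pore complex, and what they do in a cell is poorly known. Short reads from such copies often fit several genes at once, so the value of a single copy depends on how reads are shared out, and the summed level over the copies is given beside it.

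On the GRCh38 annotation of GENCODE v29, all 6 genes are protein-coding and lie on chromosome 16. NPIPB3 (ENSG00000169246, chr16:21402237-21448567, minus strand), NPIPB4 (ENSG00000185864, chr16:21834569-21880827, minus strand) and NPIPB5 (ENSG00000243716, chr16:22479121-22536521, plus strand) form a first group. NPIPB11 (ENSG00000254206, chr16:29381354-29404029, minus strand), NPIPB12 (ENSG00000169203, chr16:29483642-29505999, minus strand) and NPIPB13 (ENSG00000198064, chr16:30222937-30254510, minus strand) lie further along the same arm. Each gene of the first group overlaps a pseudogene copy of SMG1, a kinase gene of nonsense-mediated decay, on its own strand. NPIPB3 overlaps SMG1P3 over 1885 bp, NPIPB4 overlaps SMG1P4 over 1490 bp and NPIPB5 overlaps SMG1P1 over 13100 bp. NPIPB11, NPIPB12 and NPIPB13 overlap 0 other annotated genes.

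To see how far the copies can be told apart, the annotated transcripts were compared. Each of the 6 genes has a transcript of 1216 bases in 6 exons, with a coding stretch of 750 bases at positions 55 to 804. Over these 1216 bases the transcripts of NPIPB3 and NPIPB5 differed at 0 positions. NPIPB4, NPIPB12 and NPIPB13 each differed from NPIPB5 at 2 positions, and NPIPB11 differed from it at 10. In all, 14 positions varied among the 6 transcripts, 12 of them coding, and NPIPB11 alone differed at 9. Exon 5 is shown whole because its 1 variable base separates the 2 groups of genes. The capital marks that base, and the change from NPIPB5 is A540G in NPIPB11, NPIPB12 and NPIPB13, counted from 1 at the 5′ end of the transcript. The exon lies at chr16:21406799-21406859 in NPIPB3, chr16:21839250-21839310 in NPIPB4, chr16:22532060-22532120 in NPIPB5, chr16:29385795-29385855 in NPIPB11, chr16:29487339-29487399 in NPIPB12 and chr16:30227309-30227369 in NPIPB13.
NPIPB3: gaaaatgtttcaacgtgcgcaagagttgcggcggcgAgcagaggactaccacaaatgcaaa
NPIPB4: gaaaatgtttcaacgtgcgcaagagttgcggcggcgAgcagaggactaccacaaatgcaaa
NPIPB5: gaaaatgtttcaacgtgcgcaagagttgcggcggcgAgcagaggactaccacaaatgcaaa
NPIPB11: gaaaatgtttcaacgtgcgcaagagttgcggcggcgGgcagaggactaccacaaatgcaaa
NPIPB12: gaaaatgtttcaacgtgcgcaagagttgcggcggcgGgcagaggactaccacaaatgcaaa
NPIPB13: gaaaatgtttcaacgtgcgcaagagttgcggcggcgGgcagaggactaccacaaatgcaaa

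A stretch of exon 2, positions 190 to 229, is shown because it holds a base private to NPIPB4 and a pair private to NPIPB11. Capitals mark the variable bases. NPIPB4 carries G207A, and NPIPB11 carries G196A and C198T. NPIPB3, NPIPB12 and NPIPB13 have the NPIPB5 sequence here. The stretch lies at chr16:22523880-22523919 on the plus strand in NPIPB5, and on the minus strand at chr16:21847442-21847481 in NPIPB4 and chr16:29393977-29394016 in NPIPB11.
NPIPB5: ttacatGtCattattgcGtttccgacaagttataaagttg
NPIPB4: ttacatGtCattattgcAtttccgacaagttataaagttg
NPIPB11: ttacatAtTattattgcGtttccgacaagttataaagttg

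The last 60 coding bases, positions 745 to 804 in exon 6, hold the base that marks NPIPB12, C764T, in capitals. The other 5 copies have the NPIPB5 sequence. They lie at chr16:22532410-22532469 on the plus strand in NPIPB5 and at chr16:29486990-29487049 on the minus strand in NPIPB12.
NPIPB5: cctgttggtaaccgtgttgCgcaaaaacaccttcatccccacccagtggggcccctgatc
NPIPB12: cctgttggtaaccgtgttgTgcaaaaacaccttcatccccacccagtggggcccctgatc

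Over all annotated transcripts of a copy, every run of 100 bases was looked up in the transcripts of all other genes. NPIPB3 had the lowest share at this length, with 3.2% of 5371 windows found in no other gene and 96.8% found in another of the 6 genes. With runs of 50 bases NPIPB12 was lowest, at 0.795% against 2.56% for NPIPB3. The share found in no other gene was 5.64% of 4519 windows for NPIPB12 and 10.5% of 4498 for NPIPB13. It was 18.8% of 10424 for NPIPB5, 25.1% of 7479 for NPIPB4 and 44.3% of 3532 for NPIPB11, the largest share of the 6. For NPIPB5 a further 16.1% of windows occurred only in genes outside the NPIP family, against 0% for the other 5 copies. Its windows shared with SMG1P1, which it overlaps, numbered 1964, as did those shared with SMG1P3, which it does not overlap. NPIPB3 shared 5199 windows with NPIPB5 and 4388 with NPIPB4. NPIPB12 shared 3444 with NPIPB5, a gene of the first group, and 3420 with NPIPB13. A single value for NPIPB3 or NPIPB12 rests on little sequence of its own.

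**Figure D1:**
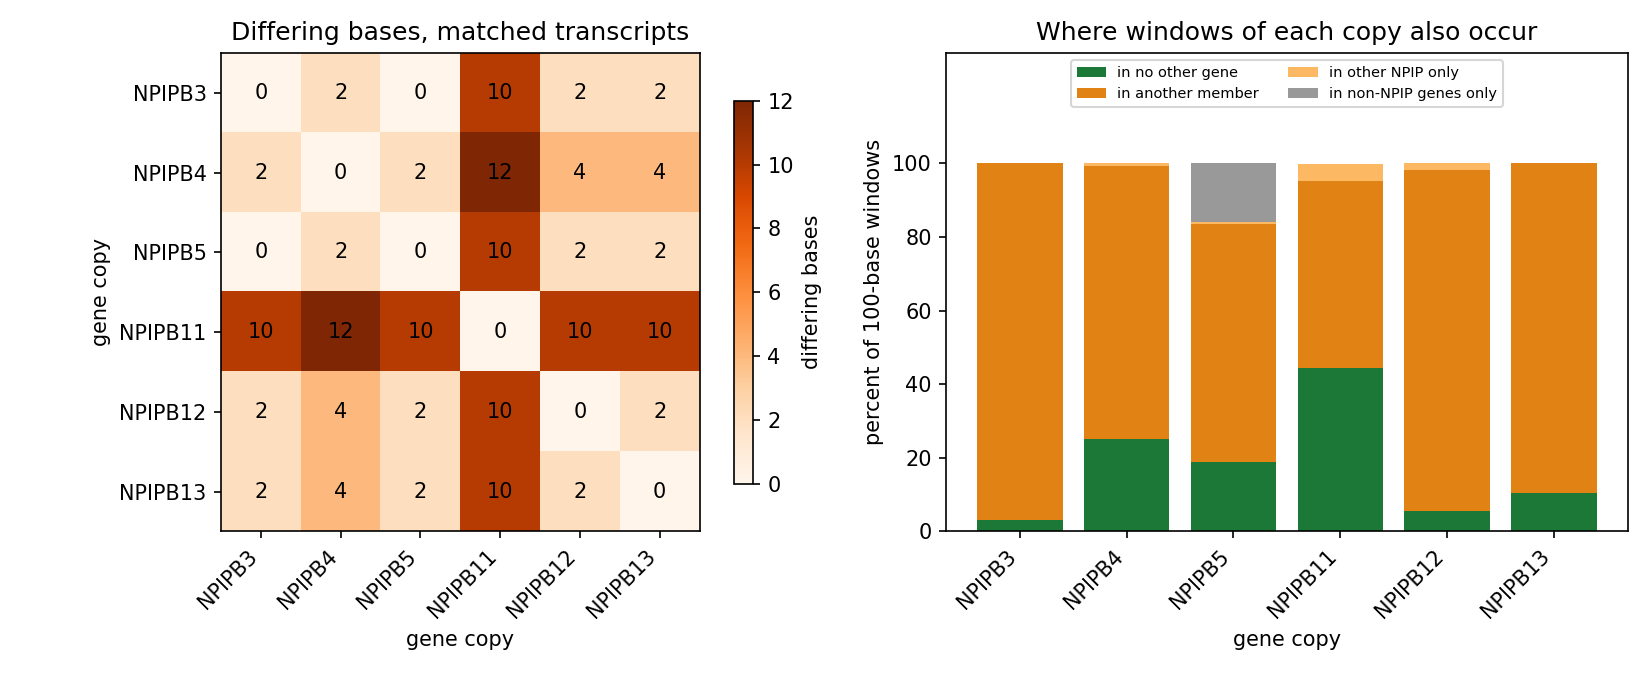
Left, the number of differing bases between the matched 1216-base transcripts of each pair of copies (colour and printed number). Right, stacked bars give the percentage of 100-base windows of each copy's transcripts by where else they occur. The classes are no other gene, another of the 6 copies, other NPIP copies but none of the 6, and only genes outside the family. NPIPB3 and NPIPB5 differ at 0 bases, NPIPB11 stands 10 to 12 bases from the rest, and the share in no other gene runs from 3.2% in NPIPB3 to 44.3% in NPIPB11.

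RefSeq promoter windows, 250 bases before to 50 after the start on GRCh38.p14, were held for 3 of the 6 genes. These 3 windows are shown because no others were held for the 6 genes. The NPIPB3 window (chr16:21425329-21425628, minus strand) and the NPIPB4 window (chr16:21857707-21858006, minus strand) share a run of 202 bases, printed in capitals. It forms positions 1 to 202 of the first and 99 to 300 of the second, so the annotated starts are offset. The NPIPB12 window (chr16:29506359-29506658, minus strand) shares no run longer than 8 bases with either. The NPIPB3 and NPIPB4 windows lie inside the gene spans given above, while the NPIPB12 window lies upstream of its span. The 3 windows therefore do not stand at like places of their genes.
NPIPB3: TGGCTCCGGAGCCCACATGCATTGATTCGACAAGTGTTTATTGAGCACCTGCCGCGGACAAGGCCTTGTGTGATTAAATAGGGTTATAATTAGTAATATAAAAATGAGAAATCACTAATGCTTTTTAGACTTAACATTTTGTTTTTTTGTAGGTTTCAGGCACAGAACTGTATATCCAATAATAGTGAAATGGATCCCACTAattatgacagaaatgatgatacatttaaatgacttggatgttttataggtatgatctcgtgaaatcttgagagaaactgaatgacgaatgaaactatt
NPIPB4: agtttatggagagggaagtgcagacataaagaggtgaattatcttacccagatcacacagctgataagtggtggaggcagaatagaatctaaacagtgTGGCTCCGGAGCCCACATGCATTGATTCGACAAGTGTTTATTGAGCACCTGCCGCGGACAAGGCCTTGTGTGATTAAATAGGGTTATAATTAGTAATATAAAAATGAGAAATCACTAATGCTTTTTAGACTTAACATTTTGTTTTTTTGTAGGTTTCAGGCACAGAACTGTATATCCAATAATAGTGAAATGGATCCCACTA
NPIPB12: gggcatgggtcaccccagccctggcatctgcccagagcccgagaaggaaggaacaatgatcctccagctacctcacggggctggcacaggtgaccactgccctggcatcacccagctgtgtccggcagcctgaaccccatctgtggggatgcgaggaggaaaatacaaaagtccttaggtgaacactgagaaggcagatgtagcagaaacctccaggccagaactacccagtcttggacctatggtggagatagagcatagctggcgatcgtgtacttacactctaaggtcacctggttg

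GC content was 34.7% in the NPIPB3 window, 38.7% in that of NPIPB4 and 56.7% in that of NPIPB12, beside a median of 58.7% over 35116 promoter windows. On either strand, TATAAA (the TATA box letters) and CCAAT were present in the NPIPB3 and NPIPB4 windows and absent from that of NPIPB12, against 11.5% and 34.6% of all windows. GGGCGG (GC box) and ACGTG (the core of the hypoxia response element) were found in 0 of the 3 windows, against 45% and 21.4% of all. These matches describe letters in a window only.

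Levels are in TPM, a length-corrected abundance scaled to a fixed sum. A comparison of copies within a sample also depends on how shared reads were assigned. NPIPB3, the most abundant copy, was at 19.9, 17.4 and 16.3 TPM in TC and at 74.2, 70.6 and 105 TPM in TM. NPIPB5 was at 18.4, 13.6 and 11.9 TPM in TC and at 67.7, 65.0 and 99.9 TPM in TM. NPIPB4 was at 7.79, 5.89 and 8.11 TPM in TC and at 27.8, 31.9 and 41.7 TPM in TM. In each of these 3 copies the lowest TM sample stood over 3 times the highest TC sample, with TM replicate 3 at the top. The NPIPB3 means were 17.9 ± 1.87 TPM in TC and 83.2 ± 18.9 TPM in TM (SD, n = 3), a ratio of 4.66. For NPIPB4 the means were 7.26 ± 1.20 and 33.8 ± 7.13 TPM, a ratio of 4.65, and NPIPB5 had a ratio of 5.29.

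NPIPB12 was at 5.39, 1.91 and 3.25 TPM in TC and at 17.99, 30.02 and 42.4 TPM in TM, a ratio of means of 8.57. NPIPB13 was at 2.52, 2.04 and 1.20 TPM in TC and at 12.7, 14.4 and 21.8 TPM in TM, a ratio of 8.49. Both had a larger ratio of means than NPIPB3, NPIPB4 and NPIPB5. The lowest TM sample over the highest TC sample was 3.34 for NPIPB12, below the 3.43 to 3.54 of those copies, and 5.04 for NPIPB13. NPIPB11 was near the lower limit of use, at 0.43, 0.32 and 0.55 TPM in TC, and at 1.61, 1.33 and 11.4 TPM in TM. One library, TM replicate 3, set most of the NPIPB11 mean in TM, 4.77 ± 5.72 TPM (SD, n = 3). NPIPB11 passed the filter of at least 1 TPM in 3 samples only through the TM group.

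The summed level of the 6 copies was 54.5, 41.2 and 41.3 TPM in TC and 202, 213 and 322 TPM in TM. TC replicates 2 and 3 lay close together with TC replicate 1 above them, and the lowest TM sample was 3.71 times the highest TC sample. The means were 45.7 ± 7.65 TPM in TC and 246 ± 66.5 TPM in TM (SD, n = 3), a ratio of 5.38. On the log2(TPM + 1) scale the TC minus TM difference of the sum was -2.38 (SE 0.25). In bulk tissue, fewer cells with these RNAs and less of the RNA per cell cannot be told apart.

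Log2 differences of the single copies were -2.14 (SE 0.20) for NPIPB3, -2.07 (SE 0.21) for NPIPB4 and -2.32 (SE 0.26) for NPIPB5. They were -2.78 (SE 0.48) for NPIPB12, -2.56 (SE 0.30) for NPIPB13 and -1.56 (SE 0.78) for NPIPB11. Without TM replicate 3 the NPIPB11 difference was -0.79. The median difference of all 13861 genes tested was -0.14, and rescaling by median-of-ratios factors moved that median to 0.05 and the summed copies to -2.17. In order of size from the largest fall, the copies took places 10 (NPIPB12), 13 (NPIPB13), 20 (NPIPB5), 28 (NPIPB3), 33 (NPIPB4) and 87 (NPIPB11) among those genes. In all 6 copies every TC sample lay below every TM sample, as in 18.9% of the genes tested. The copies were chosen on this contrast, so nothing is read from that count.

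**Figure D2:**
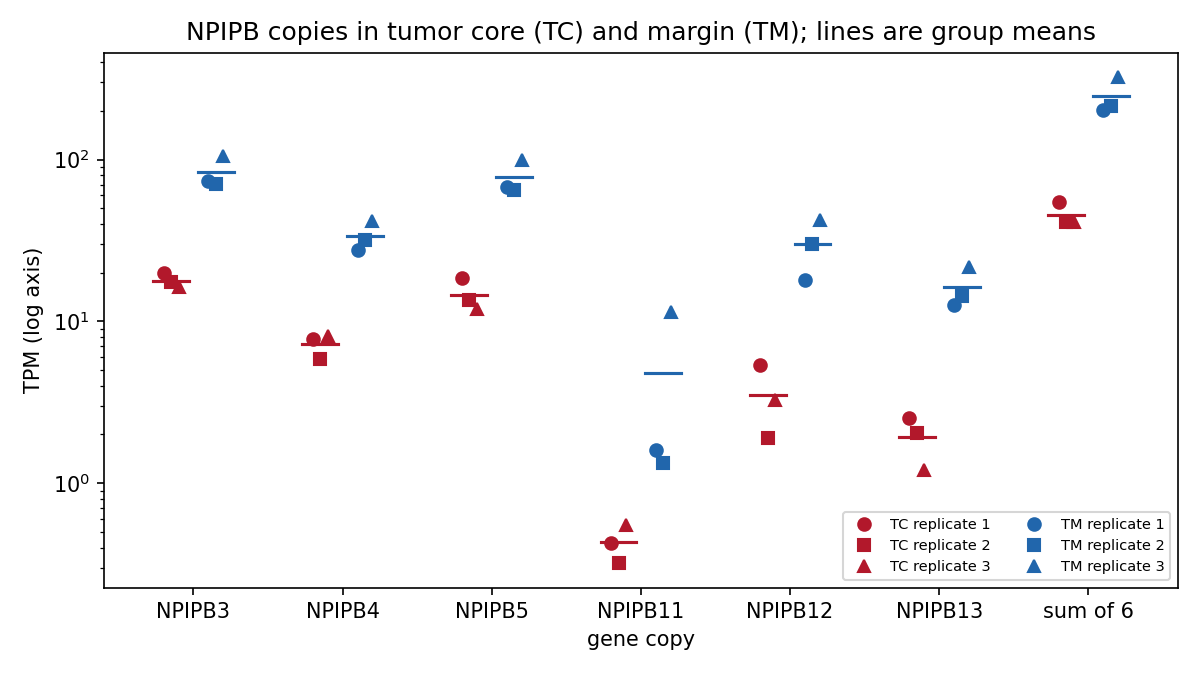
TPM (log axis) of each NPIPB copy and of their sum, in the 3 TC samples (red) and 3 TM samples (blue), with horizontal lines at the group means. The groups are apart for every copy, TM replicate 3 (blue triangle) is the highest sample for each, and NPIPB11 in TM spans 1.33 to 11.4 TPM.

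The order of the copies was not part of the choice and was tested within samples. The order from the top was NPIPB3, NPIPB5, NPIPB4, NPIPB12, NPIPB13 and NPIPB11. Of the 10 pairs without NPIPB11, 8 kept the same order in 6 of 6 samples, each with an adjusted p = 0.0361 (exact permutation test by sign flips, two-sided, Benjamini-Hochberg over all 15 pairs). The unadjusted p behind it, 0.0313, is the smallest that 6 samples allow. NPIPB11, under 1 TPM in every TC sample, was the lowest copy in 6 of 6 samples, which is given as a description. NPIPB3 exceeded NPIPB5 by a mean log2 ratio of 0.20 ± 0.14 (SD, n = 6). The matched transcripts of NPIPB3 and NPIPB5 differed at 0 positions. The part of read assignment in the order of the copies was not tested. NPIPB5 exceeded NPIPB4 by 1.04 ± 0.28. The neighbours NPIPB4 and NPIPB12 (0.58 ± 0.52) and NPIPB12 and NPIPB13 (0.69 ± 0.42) held their order in 5 of 6 samples and did not pass (adjusted p = 0.0625, same exact permutation test). The test treats the 6 samples as independent. The labels do not say so, and per the study the TC and TM tissue came from 3 mice a group. If the 6 samples are 3 tumors cut in 2 zones, sign flips over 3 animals give no p below 0.25.

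NPIPB3 and NPIPB5 together made up 71.3% ± 3.63 of the summed TPM of the 6 copies in TC and 65.8% ± 3.84 in TM (SD, n = 3). NPIPB13 made up 4.62%, 4.95% and 2.91% of it in the TC samples and 6.29%, 6.75% and 6.77% in the TM samples. NPIPB12 made up 9.89%, 4.64% and 7.87% in TC and 8.91%, 14.1% and 13.2% in TM. The NPIPB13 share was thus lower in every TC sample than in every TM sample, while the NPIPB12 share overlapped. Of the TPM of all 24 NPIP copies, the 6 copies held 48.3%, 42.5% and 44.2% in TC and 64.4%, 71.5% and 63.0% in TM. These shares come from the same contrast that chose the copies, so they are a description.

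The other 18 NPIP copies are the ones that the choice left behind, so they are not an independent sample of the family. Their summed level was 58.3, 55.7 and 52.1 TPM in TC and 111, 85.0 and 189 TPM in TM, a ratio of means of 2.32. The groups did not overlap, and the exact permutation test gave p = 0.1 (two-sided), the smallest p that 3 samples against 3 allow. The 9 other NPIPB copies summed to 4.95, 3.53 and 2.62 TPM in TC and 12.9, 9.41 and 18.2 TPM in TM. The 9 NPIPA and NPIPP1 copies summed to 53.4, 52.2 and 49.5 TPM in TC and 98.5, 75.6 and 171 TPM in TM. Both sums were lower in every TC sample than in any TM sample, with a ratio of 3.65 for the NPIPB copies and 2.22 for the NPIPA and NPIPP1 copies. The ratio of the 6 chosen copies was 5.38, and they were chosen on this contrast, so the ratios are not compared.

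Of these 18 copies, 9 passed the filter on low values. Of these, 0 were called at an adjusted p under 0.05 by limma with Benjamini-Hochberg adjustment over all genes tested, where 0.137% of genes were called. At an unadjusted p under 0.05, 7 were lower in TC and 0 higher, against 14.2% and 1.93% of all genes tested (1972 and 268 genes). After median-of-ratios rescaling the counts over all genes were 920 lower and 946 higher, and 5 of the 9 copies passed, each lower in TC. The median difference of the 9 was -0.86, and it was -0.72 after median-of-ratios rescaling. NPIPB15 was at 2.39, 2.92 and 1.87 TPM in TC and 7.36, 5.39 and 7.49 TPM in TM (log2 difference -1.19, SE 0.24, limma adjusted p = 0.0843). NPIPA1 was at 12.8, 12.4 and 14.0 TPM in TC and 22.7, 22.7 and 37.9 TPM in TM (-0.99, SE 0.22, limma adjusted p = 0.0926). NPIPB2, at 1.03, 0.05 and 0.44 TPM in TC and 2.79, 2.12 and 8.29 TPM in TM, had a limma adjusted p of 0.123. NPIPB15, NPIPA1 and NPIPB2 had the smallest p-values of the 9. They did not overlap between the zones, as in 18.9% of all genes tested, and none reached the threshold.

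NPIPA8 had the largest difference of the 9, -2.11 (SE 0.66, limma adjusted p = 0.175), with TM samples at 12.3, 5.02 and 47.6 TPM. NPIPA7 differed by -0.86 (limma adjusted p = 0.158), NPIPA5 by -0.86 (limma adjusted p = 0.298) and NPIPP1 by -0.35 (limma adjusted p = 0.633). The symbol NPIPA9 is carried by 2 genes. ENSG00000233024 differed by -0.77 (limma adjusted p = 0.252), and ENSG00000183889, which GENCODE v29 names PKD1P1, differed by -0.74 (limma adjusted p = 0.379). The remaining 9 copies were not tested. NPIPB1P and NPIPB10P were listed at 0 in all 6 samples, and NPIPB6, NPIPB7, NPIPB8, NPIPB9, NPIPB14P, NPIPA2 and NPIPA3 ranged from 0 to 1.97 TPM.

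**Figure D3:**
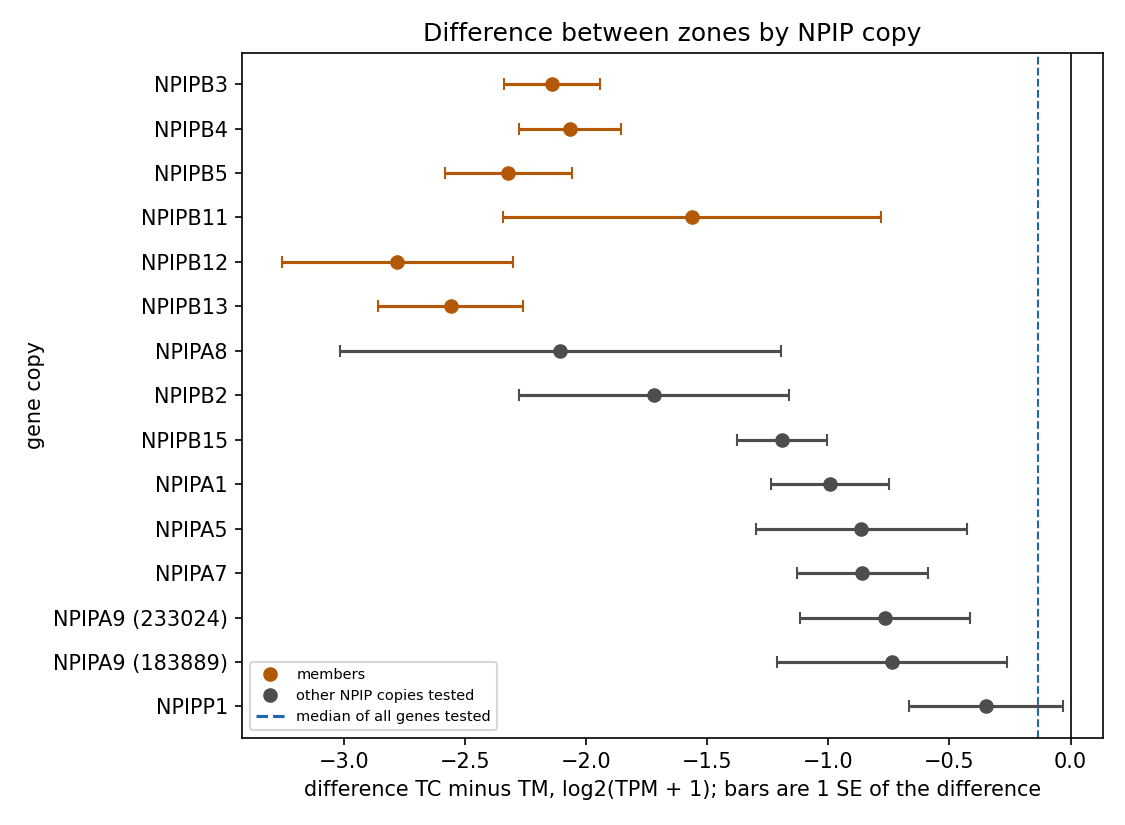
Difference TC minus TM in log2(TPM + 1) for the 6 chosen NPIPB copies (orange) and the 9 other NPIP copies that passed the filter (grey), with bars of 1 SE of the difference from the 3 and 3 samples. The dashed line is the median of all genes tested (-0.14), and the numbers after NPIPA9 end its gene ID. All 15 points lie below 0, from -2.78 for NPIPB12 to -0.35 for NPIPP1.

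To place the copies among their surroundings, 3 further lists were followed in the same limma fit. The duplicated blocks of chromosome 16 also carry other genes and pseudogenes, among them copies of SMG1 and of PKD1, which encodes the membrane protein polycystin. Of 34 such companions 31 were tested and 0 were called. At an unadjusted p under 0.05, 11 were lower and 0 higher in TC, against 14.2% and 1.93% of all genes tested. The median difference of the companions was -0.41, and -0.21 after median-of-ratios rescaling. PDXDC2P-NPIPB14P, a joined transcript unit that shares 123 windows with NPIPB5, was at 4.52, 2.29 and 2.13 TPM in TC and 11.4, 10.7 and 18.6 TPM in TM (-1.88, SE 0.31, limma adjusted p = 0.0658). PKD1 was at 26.9, 20.4 and 20.01 TPM in TC and 46.4, 46.4 and 75.0 TPM in TM (-1.26, SE 0.22, limma adjusted p = 0.0802). Its pseudogene PKD1P5 differed by -0.87 (SE 0.17, limma adjusted p = 0.0843). In these 3 genes, named for the smallest p-values of the list, the zones did not overlap, as in 18.9% of all genes tested.

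The pseudogenes that overlap NPIPB copies were singled out after their values were seen. SMG1P1, which overlaps NPIPB5, was at 8.97, 4.35 and 1.42 TPM in TC and 8.46, 7.04 and 5.80 TPM in TM (-0.67, SE 0.46, limma adjusted p = 0.551). SMG1P3, which overlaps NPIPB3, was at 8.48, 6.33 and 3.48 TPM in TC and 6.94, 6.18 and 7.55 TPM in TM (-0.22, SE 0.29, limma adjusted p = 0.785). In both pseudogenes the zones overlapped. SMG1P4, which overlaps NPIPB4, was at 1.80, 1.85 and 1.61 TPM in TC and 3.08, 3.04 and 0.36 TPM in TM, and its zones overlapped too.

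Core duplicon families are other sets of near-identical copies spread by segmental duplication, mostly on other chromosomes. They were listed by the start of their symbols, which also took in 3 genes of no such family and 3 HERC2 pseudogenes on chromosome 16. Of 201 genes listed 62 were tested and 0 were called. At an unadjusted p under 0.05, 22 were lower and 1 higher in TC, against 14.2% and 1.93% of all genes tested. The list median was -0.50 (-0.35 after median-of-ratios rescaling). Without those 6 genes, 60 were tested, 0 were called, 21 were lower and 1 was higher, with a median of -0.50. HERC2P2, GOLGA8B and NBPF8 had the smallest p-values of the list, with log2 differences of -1.54, -1.64 and -1.03 and limma adjusted p-values of 0.0813, 0.0843 and 0.0870. Of 77 protein-coding genes within 500 kb of the NPIPB copies, 55 were tested and 0 were called. At an unadjusted p under 0.05, 13 were lower and 1 higher, against 14.2% and 1.93% of all genes tested. The neighbours' median of -0.19 became 0.00070 after median-of-ratios rescaling, while the median of all genes tested moved from -0.14 to 0.05. At an unadjusted p under 0.05 after that rescaling, 6 neighbours were lower and 2 higher, against 920 and 946 of all genes tested. NFATC2IP (-1.13, limma adjusted p = 0.0658), SRCAP, a chromatin remodeller (-1.11, limma adjusted p = 0.0927), and TAOK2, a kinase (-0.75, limma adjusted p = 0.0972), had the smallest p-values. ATP2A1, a muscle calcium pump that is also in the muscle marker list, was chosen after its values were seen, and its difference of -2.64 (limma adjusted p = 0.197) rested on 10.3 and 37.6 TPM in TM replicates 1 and 2.

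**Figure D4:**
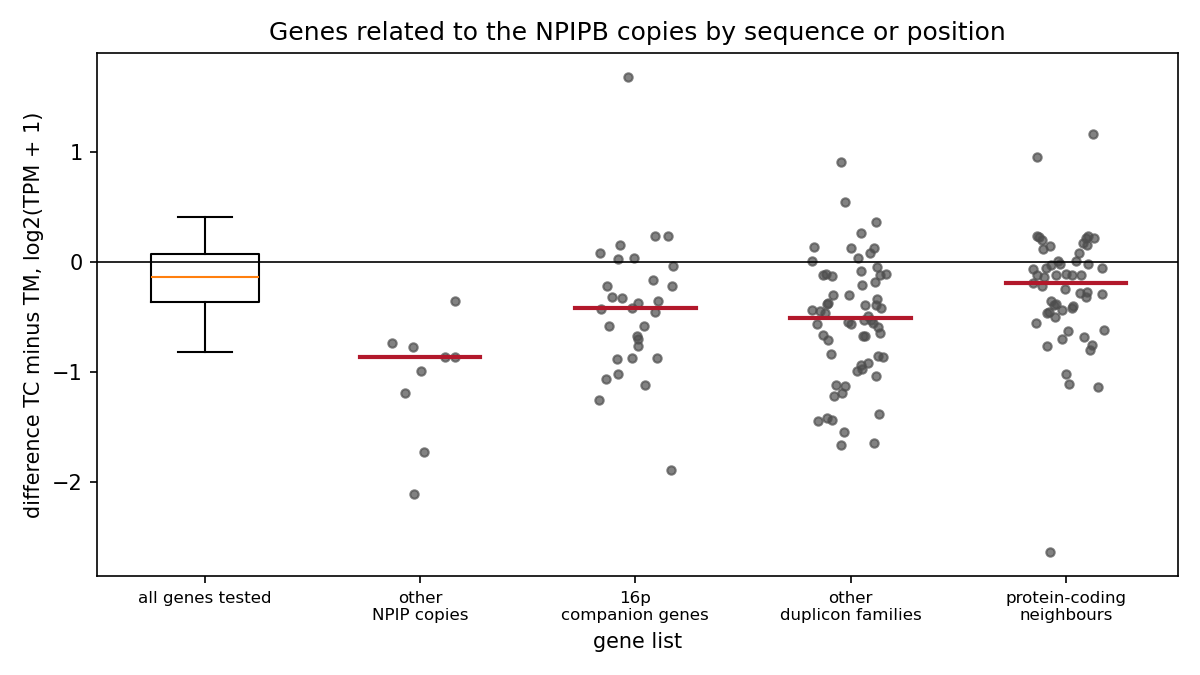
Difference TC minus TM in log2(TPM + 1) for the tested genes of each list (points, spread sideways at random) with the list median (red line). The box gives the median and quartiles of all 13861 genes tested and its whiskers the central 90%. List medians run from -0.86 for the other NPIP copies to -0.19 for the protein-coding neighbours, beside -0.14 for all genes tested.

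Among the genes outside the family whose log2(TPM + 1) was most like that of the summed copies over the 6 samples were NOP9, TUBGCP6, PSORS1C2 and ANAPC2, with Pearson r between 0.996 and 0.998. NOP9, a ribosome biogenesis factor, was at 11.3, 10.3 and 10.0 TPM in TC and 21.0, 20.9 and 27.2 TPM in TM. PSORS1C2 was near the lower limit of use, at 0.18, 0.08 and 0 TPM in TC and 1.3, 1.21 and 1.87 TPM in TM. The r is a description over 6 samples that fall into 2 separate groups. It exceeded 0.95 for 370 of 13846 genes. Among the 6 copies themselves r lay between 0.969 and 0.997 for pairs without NPIPB11, and between 0.797 and 0.810 for pairs with it, over the same 6 samples and with shared reads.

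Other measures are given beside these results, and not all of them differed between the zones. The 3 nuclear long RNAs followed (MALAT1, NEAT1 and KCNQ1OT1) summed to 37.6, 24.7 and 26.6 TPM in TC and to 70.8, 84.2 and 145 TPM in TM. In this sum TM replicate 3 was the highest sample, as for the NPIPB copies, through MALAT1 at 89.7 TPM. NEAT1 was highest in TM replicate 2, at 56.7 TPM against 55.1 TPM in TM replicate 3. KCNQ1OT1 was at most 0.17 TPM in any sample. The share of TPM in mitochondrially encoded genes was 6.08% to 8.82% in TC and 9.23% to 11.1% in TM. Skeletal muscle markers, of which 12 of 13 were in the matrix, summed to 4.23 to 8.19 TPM in TC and to 182, 493 and 2.87 TPM in TM. Fibroblast markers summed to 65.4 to 227 TPM in TC and to 480, 1020 and 87.3 TPM in TM. Both host lists were high in TM replicates 1 and 2 and lower in TM replicate 3. Without TM replicate 1, 2 or 3 in turn the summed copies differed by -2.51, -2.47 and -2.17. Leaving out TM replicate 1 or 2 still keeps the other sample in which the host lists were high. Endothelial markers summed to 2.89 to 4.15 TPM in TC and 3.71 to 6.60 TPM in TM, and macrophage markers to 2.25 to 3.11 and 3.13 to 9.58 TPM. The 4 adipocyte markers summed to at most 0.54 TPM in any sample, with LEP and ADIPOQ at 0, and the 4 erythroid markers to at most 6.93 TPM, with HBA2 at 0. Genes that mark the line, VIM, CD44, AXL, KRT8 and KRT18, summed to 5120 to 6658 TPM, and ESR1 with PGR to at most 0.27 TPM, in all 6 samples. The part of the nuclear RNAs, the mitochondrial share and the host tissue in the NPIPB difference was not tested.

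**Figure D5:**
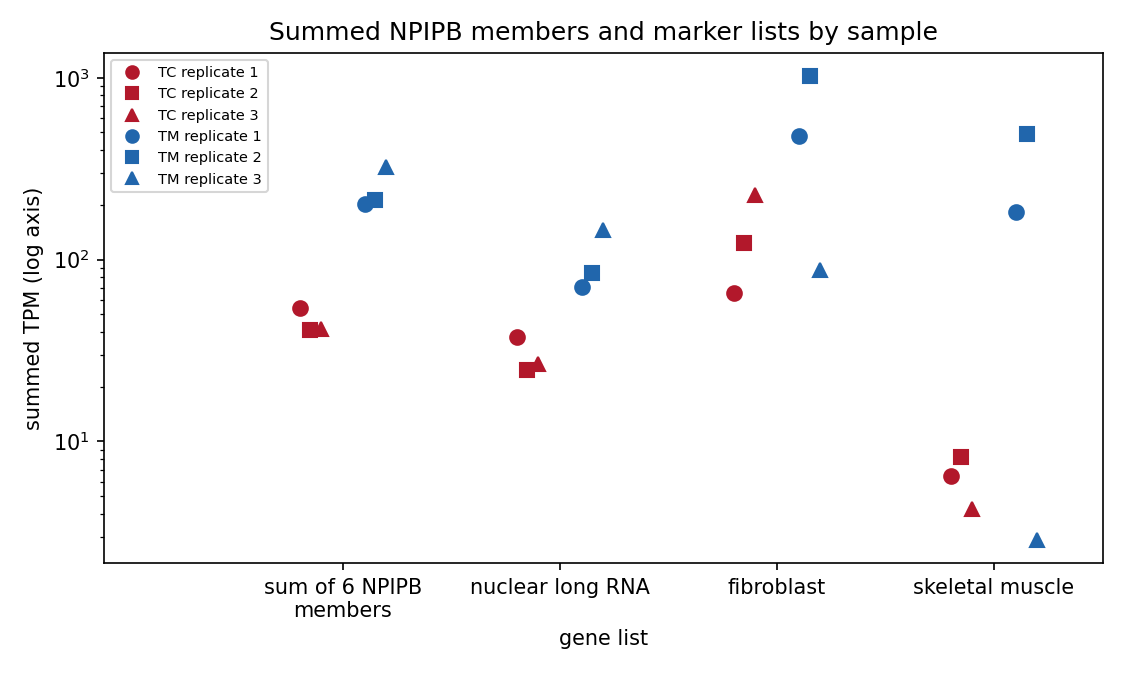
Summed TPM (log axis) of the 6 NPIPB copies, of 3 nuclear long RNAs, of 8 fibroblast markers and of 12 skeletal muscle markers in each sample. TM replicate 3 (blue triangle) is highest for the NPIPB copies (322 TPM) and the nuclear RNAs (145 TPM) and lowest of the TM samples for the fibroblast (87.3 TPM) and muscle (2.87 TPM) lists.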

How the data were processed

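RNA was sequenced from 3 TC and 3 TM samples, grouped by their titles. The authors deposited TPM per gene. Per the study's methods, SeqPrep and Sickle cleaned the reads, HISAT2 aligned them, StringTie assembled transcripts and RSEM gave gene abundances. The build hg38 comes from the submitters' processing notes. Versions and the annotation release are not given in the sources used here, nor is a step that parts mouse from human reads. HISAT2 and RSEM treat reads that fit several copies in their own ways, and how they were combined is not given, so single copies are uncertain. Sequencing depth is unknown, since TPM does not keep it, and precision rests on the replicates alone. Column totals were 1000000, except 994381 for TM replicate 3.

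Annotated genes (60671 of 60930 features, the other 259 being assembled loci) were matched to symbols (60647) and to GENCODE v29 on GRCh38 (58453). Values were transformed as log2(TPM + 1). Genes reaching 1 TPM in 3 or more samples were fitted by limma 3.58.1 in R 4.3.3 (empirical Bayes with a trend, two-sided, Benjamini-Hochberg over 13861 genes). The fit was tested on simulated data. The members and all lists were chosen with earlier results of these data known. The genes named are the 6 copies, every other NPIP copy tested, the 3 smallest p-values of each further list and the 5 genes most alike, of which 1 is not reported here, with exceptions marked. Transcript and promoter sequences are those of GENCODE v29 and RefSeq. Python 3.11.15 and matplotlib 3.10.9 drew the figures. Alternatives were other pseudocounts, filters, scalings and moderation, the replicate number as a block, other window lengths and leaving out each sample.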

Additional observations from a re-analysis of the deposited data

How the results depend on the processing

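The summed NPIPB copies were lower in TC under every alternative run: -2.41 with a pseudocount of 0.1, -2.21 after quantile normalization, -2.17 after median-of-ratios rescaling, -2.44 without mitochondrially encoded genes and -2.51 to -2.17 leaving out one sample. Only the NPIPB11 and NPIPB13 differences moved past 1 SD, to -2.53 and -3.04, with a pseudocount of 0.1. Leaving out one sample, NPIPB11 ranged from -1.99 to -0.79, the last without TM replicate 3.

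Genes called numbered 19, and 7 with a pseudocount of 0.1, 1 without a filter, 4 after quantile normalization, 6 after median-of-ratios rescaling, 12 without a trend and 47 with robust moderation. Without TC replicates 1, 2 and 3 in turn they numbered 2, 12 and 0 (limma, with 1632 genes at an unadjusted p under 0.05 in the last), and without TM replicates 1, 2 and 3 they numbered 1, 8 and 17. Genes lower in TC at an unadjusted p under 0.05 numbered 1972, and 1124 after quantile normalization, 920 after median-of-ratios rescaling and 1241 (without TM replicate 1) to 2230 leaving out one sample. With a mean of at least 5 TPM such genes numbered 4 among other NPIP copies and 12 among other duplicon families, where fewer genes were tested. Trimming the duplicon list, an alternative chosen after seeing the data, gave 21 such genes and 0 called. Among neighbours they numbered 6 after quantile normalization, 6 after median-of-ratios rescaling, 8 with the block and 7 (without TC replicate 2 or TM replicate 1) to 13 leaving out one sample. Robust moderation called 1 companion (PDXDC2P-NPIPB14P) and 1 neighbour (NFATC2IP), each at a limma adjusted p of 0.0494. The cause of these changes was not tested.

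Replicate numbers are shared by the groups. The correlations of deviations were 0.21, -0.12 and -0.16 for numbers 1, 2 and 3. With 3 samples a group, these values cannot show whether core and margin came from the same tumors, so pairing stays unknown. With the replicate block 1 gene was called. The summed difference of -2.38 is a difference of group means, which the block cannot change.

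Leaving out one sample, the order of the copies passed in 0 of 15 pairs, since the smallest p is then 0.0625; 13 to 14 pairs kept one order. With windows of 50 bases the share found in no other gene was 2.56% for NPIPB3, 17.8% for NPIPB4, 12.5% for NPIPB5, 27.1% for NPIPB11, 0.795% for NPIPB12 and 5.36% for NPIPB13. With windows of 150 bases it was 3.93%, 31.1%, 23.1%, 61.1%, 9.98% and 15.8% in that order.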
